A study of Mus musculus with 2 samples.

Results

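Mir143, Mir145a and Mir145b are microRNA genes of mouse chromosome 18, chosen by their GENCODE M21 symbols from a table of 2202 annotated microRNA genes. All 3 were found, and each is given here in both libraries of the study. The libraries come from the hearts of 2 male B6CASTF1/J mice, an F1 hybrid of strains C57BL/6J and CAST/EiJ, taken at 4 days of age and obtained from The Jackson Laboratory. The animals carried no treatment or engineered allele that the labels name, and whole heart tissue was used. The labels number the libraries as biological replicates 2 and 1 and the animals as males 04 and 03, but give both the same donor identifier. If the hearts were not separate, the spread between the libraries is technical. The libraries form 1 group, so there is no contrast between conditions, and every difference below is between these libraries.

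MicroRNAs are cut from hairpin precursors and, loaded on Argonaute proteins, lower the output of messenger RNAs that match their seed, the bases near the 5′ end. miR-143 and miR-145 are the best known microRNAs of smooth muscle, where serum response factor and its partner myocardin drive a common primary transcript that holds both hairpins. Mice that lack the cluster have arteries with less contractile smooth muscle, and transcription factors such as Klf4 and Elk1 are among the described targets. In the mouse heart the cluster is active in cardiac progenitors and later mainly in the smooth muscle of vessels. miR-145b is a separately named relative of miR-145a about which little is established.

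Each table gives sense counts, which are reads on the strand of the gene, and levels are given as CPM, counts scaled to a library total of 1e+06 sense counts. These totals were 3801738 in replicate 2 and 4196577 in replicate 1, so that 1 read was worth 0.263 and 0.238 CPM. Reads that mapped to several places, 42.3% of all reads in replicate 2 and 38.1% in replicate 1, are not in the counts. Of 7 heart muscle marker genes, all had reads in both libraries, and the 3 in myosin introns had the most. Mir499 had 4633 CPM in replicate 2 and 5794 CPM in replicate 1, Mir208b 2965 and 5169 CPM, and Mir208a 1259 and 2091 CPM. The genes of miR-1 and miR-133a, known as abundant in heart muscle but present in near-identical copies, had few reads assigned. Mir1a-2 had 54.4 CPM in replicate 2 and 33.1 CPM in replicate 1, and Mir133a-1, Mir1a-1 and Mir133a-2 lay between 1.32 and 7.63 CPM. A fall in the number of cells of a type and a fall in RNA per cell cannot be told apart in such bulk tissue. Errors after ± are SDs over the libraries (n = 2), and intervals are 95% intervals that cover counting error only, since amplified reads are not independent molecules.

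Mature sequences of 4 microRNAs are shown because levels of their hairpin genes, both arms together, are given beside those of Mir143 and Mir145a. They are from RefSeq on GRCm38.p6, 5′ to 3′, with the seed, bases 2 to 8, in capitals. They lie at chr2:26591402-26591423 (plus strand), chr11:96317186-96317208 (plus), chr11:75463772-75463793 (plus) and chr11:86584120-86584141 (minus), in the order shown. The 4 seeds differ from one another. miR-126a marks endothelium, miR-10a and miR-22 have been described to favour the contractile state of smooth muscle, and miR-21a its growth.
mmu-miR-126a-3p: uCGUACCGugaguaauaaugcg
mmu-miR-10a-5p: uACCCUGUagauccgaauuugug
mmu-miR-22-3p: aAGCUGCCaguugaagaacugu
mmu-miR-21a-5p: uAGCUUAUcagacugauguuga

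All 3 hairpins are annotated on the minus strand of the mm10 assembly. Mir143 (ENSMUSG00000065445.3) lies at chr18:61649196-61649258 and is 63 bases long. Mir145a (ENSMUSG00000065592.2) lies at chr18:61647825-61647894, is 70 bases long and follows Mir143 in the direction of transcription after a gap of 1301 bases. Neither hairpin lies inside another annotated gene, exon or intron. The last base of Carmn, a long noncoding RNA gene on the same strand, is 366 bases before Mir143. Bvht, a long noncoding RNA gene known for its part in the cardiovascular commitment of mouse stem cells, ends 352 bases beyond Mir145a on the opposite strand. The nearest protein-coding gene on the upstream side, Il17b, which encodes a cytokine, is 35628 bases from Mir143.

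**Figure D1:**
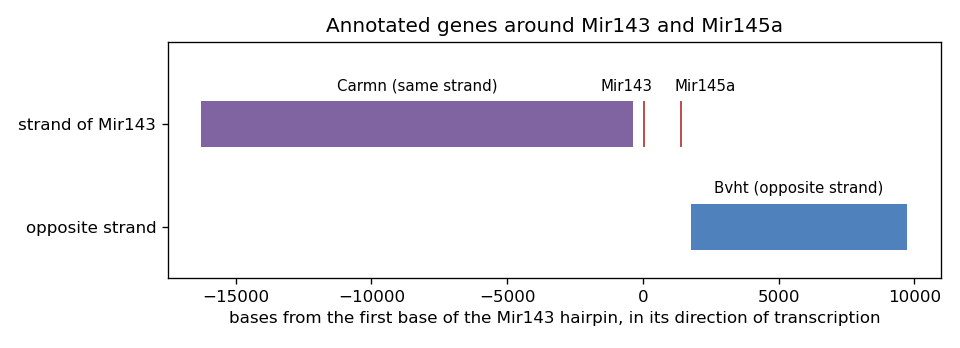
Annotated genes around the cluster, with the distance in bases from the first base of the Mir143 hairpin in its direction of transcription on the horizontal axis and the strand on the vertical axis. Mir143 and Mir145a stand 1301 bases apart, between the end of Carmn on their own strand and Bvht on the other.

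Mir145b (ENSMUSG00000098366.1) is not part of this cluster by the annotation. It lies at chr18:69022199-69022273, also on the minus strand, 7374304 bases from Mir145a, so the hairpins do not overlap on either strand. No other annotated gene contains it, and the nearest, the long noncoding RNA gene 4930546C10Rik, is over 70 kb away. The hairpins of Mir145a and Mir145b share a run of 17 bases, the longest run that either shares with any other of the 2202 hairpins. The longest run of Mir143 shared with any other hairpin is 11 bases. No hairpin of the 3 shares a window of 20 bases with another microRNA hairpin. The search took exact matches only. Whether reads of these genes were lost as multi-mapped, through alignment with mismatches or copies elsewhere in the genome, was not tested.

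By sense counts, Mir143 was one of the most abundant microRNA genes of these neonatal heart libraries. Multi-mapped reads are not in these counts, so the places of genes with near-identical copies, and ranks against them, are uncertain. Mir143 had 279313 sense counts in replicate 2 and 197555 in replicate 1. The share was 7.35% in replicate 2, with a Wilson interval of 7.32 to 7.37, against 4.71% in replicate 1, with 4.69 to 4.73. In CPM these were 73469.8 in replicate 2 and 47075 in replicate 1. By reads per base of the annotated hairpin it ranked 2 of 2202 genes in replicate 2 and 5 in replicate 1. By CPM its ranks were 4 and 5. The high place was thus held in both libraries, with the higher share in replicate 2.

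Of the 4 genes next to Mir143 in mean CPM, Mir126a changed sides with it between the libraries and the other 3 did not. Mirlet7g, of the let-7 family of differentiated cells, had 80315 CPM in replicate 2 and 71157 CPM in replicate 1, above Mir143 in each. Mir126a had 49330.1 and 109199 CPM, below Mir143 in replicate 2 and above it in replicate 1. Mir23b, from a cluster active in vessels and muscle, had 50452 and 40111 CPM, below Mir143 in each library. Mir23a, with 40049 and 32873 CPM, was also below Mir143 in each.

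Mir145a was far less abundant than its neighbour. It had 22804 sense counts in replicate 2 and 6298 in replicate 1. The share was 0.600% in replicate 2, with a Wilson interval of 0.592 to 0.608, against 0.150% in replicate 1, with 0.146 to 0.154. In CPM these were 5998 in replicate 2 and 1501 in replicate 1. Its rank by reads per hairpin base was 28 in replicate 2 and 61 in replicate 1. The genes next to it in mean CPM were Mir181d, Mir98, Mir140 and Mirlet7f-2. Mir181d had 4270 CPM in replicate 2 and 3286 CPM in replicate 1, Mir98 had 4277 and 3266 CPM, and Mirlet7f-2 had 3864 and 3326 CPM. All 3 were below Mir145a in replicate 2 and above it in replicate 1. Mir140, a microRNA of cartilage and other connective tissue, had 6173 and 1214 CPM, above Mir145a in replicate 2 and below it in replicate 1.

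Mir145b was at the limit of detection. It had 4 sense counts in replicate 2, or 1.05 CPM, and 0 in replicate 1, where a count of 0 still allows 0.715 CPM, the level of 3 counts. Its counts over both libraries were under the minimum of 10 used for testing, and no fold against Mir145a is given. Of the 2202 genes, 1458 had 0 counts in both libraries.

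The strand columns add no reads for any of the 3 genes. Counts taken without regard to strand were equal to the sense counts for each gene in each library, namely 279313 and 197555 for Mir143, 22804 and 6298 for Mir145a, and 4 and 0 for Mir145b. Counts on the opposite strand were 0 in both libraries for each gene. The levels in CPM do depend on the choice of column. Without regard to strand Mir143 averaged 77875 CPM, against 60273 CPM, and Mir145a 4772 CPM, against 3750 CPM. No read of Mir145a was therefore ambiguous with a gene on the other strand.

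**Figure D2:**
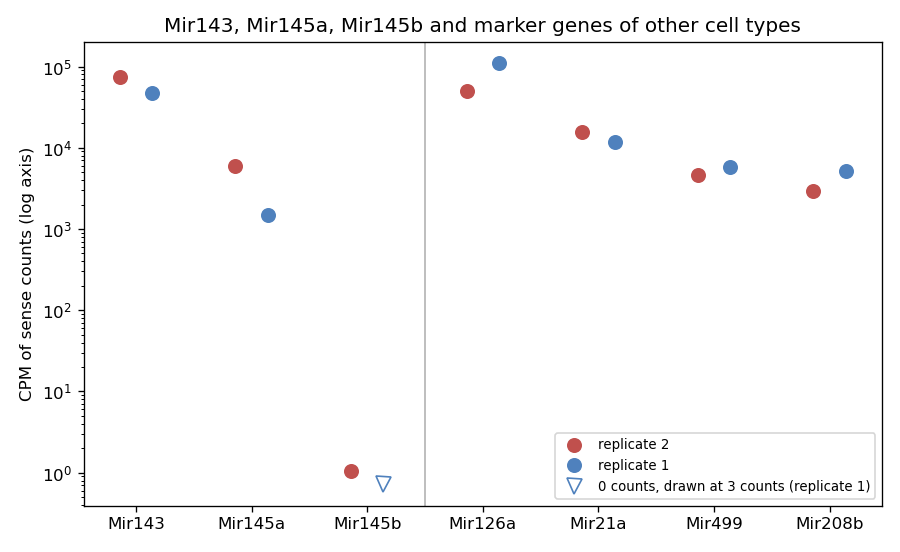
CPM of sense counts on a log axis for Mir143, Mir145a and Mir145b and, right of the line, for Mir126a (endothelium), Mir21a (fibroblasts and growing smooth muscle), Mir499 and Mir208b (heart muscle), with 1 point for each library and no error bar. Mir143 had 73469.8 and 47075 CPM in replicates 2 and 1, Mir145a 5998 and 1501 CPM, and Mir145b 1.05 CPM and 0 counts, the last drawn at the level of 3 counts.

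Mir143 and Mir145a were both higher in replicate 2. For Mir143 the log2 ratio of replicate 2 over replicate 1, on log2(CPM + 1), was 0.64, a fold of 1.56 (interval 1.55 to 1.57). For Mir145a it was 2.00, a fold of 4.00 (3.89 to 4.11). Both passed a two-sided Fisher's exact test of the reads with Benjamini-Hochberg adjustment over 441 genes, at a threshold of 0.05. That test takes counting error as the only error and called 56.9% of the genes tested, 20.4% as higher and 36.5% as lower in replicate 2. A call is therefore common among these genes, and it compares 2 libraries and not conditions.

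By the size of the gap Mir145a was near the top of the range and Mir143 was not. Among the 243 genes with a mean count of 100 or more, its ratio was number 4 from the highest, and 9 genes (3.7%) were over 2-fold higher in replicate 2. TMM scaling (the trimmed mean of M-values) shifts every log2 ratio by the same amount, so Mir145a stays number 4 by construction. With it, 15 genes (6.17%) were over 2-fold higher. By distance from 0 in either direction, without TMM scaling, Mir145a was number 14, where 41 genes (16.9%) were over 2-fold apart. Mir143 was number 22 from the highest and number 90 by distance from 0. With TMM scaling the places by distance from 0 were 9 for Mir145a and 49 for Mir143. TMM scaling adds 0.24 to every log2 ratio, DESeq2 size factors add 0.31, and both genes stayed higher in replicate 2 with either. Over all genes tested, TMM scaling gave 28.1% called higher and 26.3% called lower, and DESeq2 size factors gave 30.8% and 23.6%.

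Spread beyond counting error was also estimated. edgeR's common dispersion over 344 genes, estimated from these same libraries, gave a coefficient of variation of 0.379, a single value for all of them. With that spread, edgeR's exact test gave Mir145a an unadjusted p of 0.0064 and an adjusted p of 0.282 for 2.24 on the log2 scale. For Mir143, at 0.89, the edgeR exact test gave an unadjusted p of 0.263 and an adjusted p of 1. Neither gene passed, and 2 of 441 genes did, while 25 had an unadjusted p under 0.05. Since the test takes its spread from the libraries it compares, it can make few calls.

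**Figure D3:**
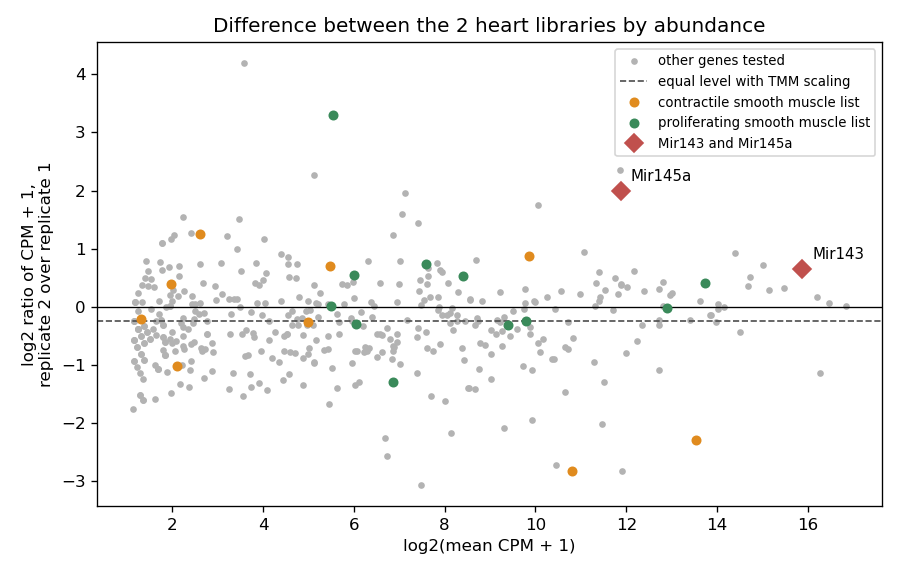
Log2 ratio of CPM + 1, replicate 2 over replicate 1, against log2(mean CPM + 1) for the 441 genes tested, 1 point a gene, with Mir143, Mir145a and the smooth muscle lists marked and the dashed line at equal level under TMM scaling. Mir145a stands at 2.00 and Mir143 at 0.64.

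The balance between the hairpins of the cluster differed between the libraries. Mir143 exceeded Mir145a by 12.2-fold in reads in replicate 2 (interval 12.1 to 12.4) and by 31.4-fold in replicate 1 (30.6 to 32.2). Per base of hairpin the folds were 13.6 (13.4 to 13.8) and 34.9 (34.0 to 35.7). Mir145a thus gave 7.55% of the pair's reads in replicate 2, with a Wilson interval of 7.45 to 7.64, against 3.09% in replicate 1, with 3.02 to 3.17. This comparison is free of the library total and of any scaling.

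The fold of Mir143 over Mir145a in replicate 2 was 0.390 times that in replicate 1 (interval 0.380 to 0.402), a difference of -1.36 on the log2 scale. It passed a two-sided Fisher's exact test on the reads of the 2 genes in the 2 libraries at the threshold of 0.05, which again covers counting error only. The log2 fold averaged 4.29 ± 0.96, so Mir143 was above Mir145a by far more than the spread between the libraries. Ligation and amplification can favour one microRNA over another, and their part in a fold that both libraries share was not tested.

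Taken as a sum, the cluster held 79468 CPM in replicate 2 and 48576 CPM in replicate 1, or 7.95% and 4.86% of sense counts. The sum was 1.64-fold higher in replicate 2 (interval 1.63 to 1.65). Mir145a made up 14.6% of that gap. The level of the cluster is thus nearly that of Mir143 alone.

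Other hairpins that lie close together also changed their balance. Neighbouring microRNA genes on the same strand within 10 kb, each with 10 or more counts in both libraries, formed 89 pairs, of which 36 are on chromosome 12 and several share a gene. The median fold of the higher over the lower hairpin, per base, was 6.17, and the Mir143 pair ranked 21 by this fold. Multi-mapped reads are not counted, which can raise the fold of a pair whose lower hairpin has near-identical copies. The part of such losses in these folds and ranks was not tested. The log2 fold differed between the libraries by 0.53 at the median, from 0.016 to 2.47. The Mir143 pair, at 1.36, ranked 17, and 27 of the 89 pairs differed by more than 1.

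Deeply read pairs gave a like picture. Among the 63 pairs with 100 or more counts for each gene in each library, the median difference was 0.67, 20 pairs differed by more than 1, and the Mir143 pair ranked 12. Wide gaps were seen in Mir487b and Mir381 of the imprinted cluster of chromosome 12, with 2.47, and in Mir93 and Mir106b, which favour cell division, with 2.26. The unequal change of Mir143 and Mir145a was therefore in the upper part of the range of such pairs and not beyond it.

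**Figure D4:**
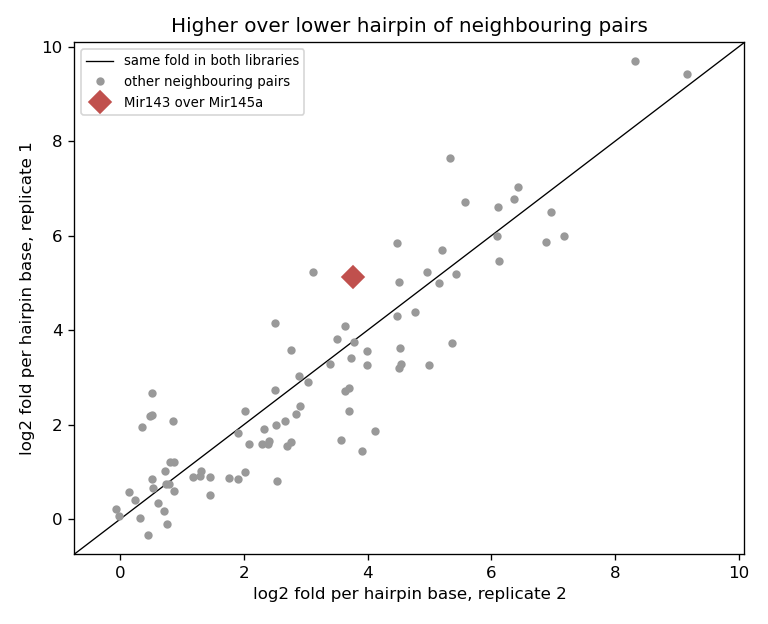
Log2 fold per hairpin base of the higher over the lower gene of 89 neighbouring pairs, replicate 2 on the horizontal axis and replicate 1 on the vertical axis, 1 point a pair, with the line of equal folds. The Mir143 over Mir145a pair lies above the line, with folds of 13.6 in replicate 2 and 34.9 in replicate 1.

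The genes most like Mir143 and Mir145a in their ratio were found among the 243 genes with a mean count of 100 or more. With 2 libraries, likeness rests on a single number, the log2 ratio of replicate 2 over replicate 1. Nearest to Mir143 were Mir142, a microRNA of white blood cells, at 0.63, Mir107 at 0.62 and Mir181a-1 at 0.67. Nearest to Mir145a were Mir203, a microRNA of skin and other epithelium, at 1.97, Mir10b of the Hox clusters at 1.74 and Mir669e at 2.27. The ratio of Mir145a had fewer close matches: its nearest was 0.033 away and its next 0.25, while all 3 of Mir143 were within 0.025. Mir145a lies near the top of the range, where ratios are far apart, so this may only reflect its place.

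Besides Mir143, Mir145a and Mir145b, 9 microRNA genes described to favour the contractile state of smooth muscle were tested. Fisher's exact test, adjusted over all genes, called 3 of them higher and 2 lower in replicate 2, beside 20.4% and 36.5% of all genes tested. The counts were also 3 and 2 by the exact binomial test with TMM scaling, beside 28.1% and 26.3% of all genes, and with DESeq2 scaling, beside 30.8% and 23.6%. The median log2 ratio of these 9 genes was -0.20, near the -0.26 over all 441 genes. That median was the ratio of Mir133a-2, with 5 counts in replicate 2 and 7 in replicate 1. In sum these 9 genes held 0.577% of sense counts in replicate 2 and 2.36% in replicate 1, with Mir22 the largest part. With Mir143 and Mir145a counted in, the median was 0.39 over 11 genes, with 5 higher and 2 lower. It was then the ratio of Mir1a-1, with 13 and 10 counts. Mir1a-1, Mir1a-2, Mir133a-1 and Mir133a-2 are also heart muscle markers, and Mir1a-2 and Mir133a-1 were called higher in both lists. Mir10a, at 1206 CPM in replicate 2 and 657 CPM in replicate 1, was also higher in replicate 2, with a log2 ratio of 0.88. Mir22 went the other way, with 4030.0 CPM in replicate 2 and 19704 CPM in replicate 1, a log2 ratio of -2.29. Mir195a, of the miR-15 family that slows the cell cycle, had 437 and 3125 CPM and a log2 ratio of -2.84. Mir1a-2 had 207 and 139 counts with a log2 ratio of 0.70, and its reads are uncertain because near-identical copies exist.

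Of 11 genes described to favour growing smooth muscle, all 11 were tested, with 5 higher and 5 lower in replicate 2, beside 20.4% and 36.5% of all genes. TMM scaling turned this to 6 higher and 1 lower, beside 28.1% and 26.3% of all genes, and DESeq2 size factors gave the same counts, beside 30.8% and 23.6%. The median log2 ratio was 0.02, beside -0.26 over all genes tested. Mir21a had 15435 CPM in replicate 2 and 11681 CPM in replicate 1 and was higher at 0.40, which the other scalings raise. Mir130a had 7606 and 7748 CPM, and its log2 ratio of -0.03 turned to 0.22 with TMM scaling and 0.29 with DESeq2 scaling. Mir155, at 807 and 955 CPM, had -0.24, which turned to 0.0022 and 0.07. Mir146, at 597 and 741 CPM, had -0.31, which became -0.07 with TMM scaling and turned to 0.0019 with DESeq2 size factors.

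Set against Mir126a of the endothelium, Mir143 and Mir145a both stood higher in replicate 2. Per base of hairpin Mir143 was 1.73 times Mir126a in replicate 2 (interval 1.72 to 1.74) and 0.500 times Mir126a in replicate 1 (0.497 to 0.502). Mir145a was 0.127 times Mir126a in replicate 2 (0.125 to 0.129) and 0.0143 times in replicate 1 (0.0140 to 0.0147). In reads, without division by hairpin length, Mir143 was 1.49 times Mir126a in replicate 2 and 0.431 times in replicate 1. Mir145a was 0.122 and 0.0137 times Mir126a in reads. Mir126a had a log2 ratio of -1.15. Against Mir21a the per-base fold of Mir143 was 6.95 in replicate 2 (6.89 to 7.01) and 5.89 in replicate 1 (5.83 to 5.94), a difference of 0.24 on the log2 scale, beside 1.79 against Mir126a. Mir145a was 0.511 times Mir21a per base in replicate 2 (0.503 to 0.519) and 0.169 times in replicate 1 (0.164 to 0.173), a difference of 1.60. In reads, Mir143 was 4.76 and 4.03 times Mir21a in replicates 2 and 1, and Mir145a 0.389 and 0.128 times. Of the fibroblast genes tested, Mir21a was the only one called higher in replicate 2, and 4 were called lower. Mir214 was among those lower. In reads, Mir143 was 78.1 and 7.04 times Mir214 in replicates 2 and 1, a difference of 3.47 on the log2 scale. Mir145a was 6.38 and 0.225 times Mir214, a difference of 4.83. The change against a fibroblast gene thus depended on the gene chosen.

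Marker lists of other cell types also differed between the libraries, and their part in the higher Mir143 and Mir145a of replicate 2 was not tested. The calls by total counts stand beside 20.4% higher and 36.5% lower over all genes tested. Endothelial genes summed to 4.93% of sense counts in replicate 2 and 10.9% in replicate 1, with 1 of 2 tested, that one lower, and Mir126b at 0 and 3 counts. Heart muscle genes summed to 0.892% and 1.31%, with 2 of 7 higher and 3 lower. Fibroblast genes summed to 1.67% and 1.90%, with 1 of 7 tested higher and 4 lower, and Mir199a-1 at 0 counts in both libraries. Of these sums, 16657 CPM in replicate 2 and 19031 CPM in replicate 1, Mir21a gave 15435 and 11681 CPM. Mir21a is also on the growing smooth muscle list and was the gene called higher. Mir214, called lower, had 941 and 6683 CPM. Gut and liver genes summed to 0.0175% and 0.0715%, with 5 of 5 lower, and the other epithelial genes to 0.0577% and 0.0361%, with 3 of 7 higher and 2 lower. White blood cell genes summed to 0.214% and 0.222%, with 3 of 5 higher and 2 lower, and red blood cell genes to 0.0400% and 0.0493%, with 0 of 3 higher and 2 lower. No gene of these lists but Mir126b and Mir199a-1 was at 0 in either library. With TMM scaling the white blood cell split was 3 higher and 0 lower, the fibroblast split 1 and 3, and the red blood cell split 1 and 2. The shares over all genes tested were then 28.1% higher and 26.3% lower. DESeq2 size factors gave 3 and 0 for white blood cells, 1 and 3 for fibroblasts, 1 and 1 for red blood cells and 2 and 2 for heart muscle. Over all genes tested they gave 30.8% higher and 23.6% lower.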

How the data were processed

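MicroRNA sequencing libraries of total RNA from 2 hearts were used, made for RNA of a size under 30, as the labels put it. The authors deposited raw read counts per microRNA gene for each library, not normalized, on mm10 with GENCODE M21, per the description files beside the tables. The aligner is not given in the sources used here, and whether reads of CAST alleles were lost in alignment was not tested. Symbols, positions and hairpin sequences were from GENCODE M21. CPM is the sense count over the sum of sense counts. Lines that name no gene (unmapped, multi-mapped, outside genes, ambiguous) were kept out: sense counts were 40.9% of all reads in replicate 2 and 43.8% in replicate 1.

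Genes with 10 or more counts over both libraries (441) were compared with Fisher's exact test (SciPy 1.17.1). The simulated data on which it was tried held counting error only, so they do not bear on spread between the libraries. With TMM, DESeq2 (1.42.0) or other scaling, an exact binomial test was used. edgeR (4.0.16) gave the spread, since a contrast of 2 libraries leaves no residual degrees of freedom for its quasi-likelihood test. Folds between genes have exact conditional intervals, except the ratio of folds, which has a log-normal one. The pseudocount was 1 CPM. Members and lists were chosen with earlier results of these data known. Named besides the members are the 3 nearest genes in ratio, the 4 nearest in mean CPM and the 4 most abundant others of each smooth muscle list, the 2 widest deeply read pairs, chosen after their values were seen, and cell type markers. The alternatives are listed in the closing section.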

Additional observations from a re-analysis of the deposited data

How the results depend on the processing

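Of 27 alternative values, leaving out a replicate not counted, 21 kept their direction and their side of the threshold or stayed within 1 SD, which is wide with 2 libraries. Some of these could not move. Counts without regard to strand leave the fold of Mir143 over Mir145a and the Mir145b count the same. Reads per base change that fold only by the fixed ratio of the hairpin lengths. Mir143 averaged 25327 CPM with all reads of the tables as the total and 149074 CPM with the 10 most abundant genes left out of the total, against 60273 CPM, and Mir145a 1555 CPM and 9407 CPM in the same settings, against 3750 CPM. These changes are built into the smaller or larger totals. With edgeR's exact test the log2 ratios of 0.89 for Mir143 and 2.24 for Mir145a no longer passed (adjusted p of 1 and 0.282), and 2 genes were called in place of 251, because the test adds spread between the libraries to counting error. Their log2 ratios under the other settings ran from 0.53 to 0.95 for Mir143 and from 1.89 to 2.31 for Mir145a, all past the threshold. TMM scaling called 240 genes, 124 higher and 116 lower in replicate 2, and DESeq2 scaling 240, 136 higher and 104 lower, beside 90 higher and 161 lower by total counts. Without replicate 1 or replicate 2, Mir143 was 73469.8 or 47075 CPM, Mir145a 5998 or 1501 CPM, Mir145b 4 or 0 counts, and the fold of Mir143 over Mir145a 12.2 or 31.4, so that for Mir145a and this fold a single library sets the value. No paired analysis was possible because both libraries belong to 1 group. Only 2 libraries were made, which limits every statement on spread. The depth allows no level of Mir145b.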

Other observations

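Of all reads that the tables account for, with unmapped and multi-mapped reads included, Mir143 took 3.01% in replicate 2 and 2.06% in replicate 1, and Mir145a 0.245% and 0.0657%. Against Mir22, Mir145a had 2.02 times the reads per hairpin base in replicate 2 (interval 1.98 to 2.06) and 0.103 times in replicate 1 (0.101 to 0.106). Mir145a and Mir22 thus changed order between the libraries. Against the heart muscle gene Mir208b, Mir145a had 2.23 times the reads per base in replicate 2 (2.18 to 2.28) and 0.319 times in replicate 1 (0.310 to 0.328). Mir143 was above Mir22 and Mir208b in both libraries, by per-base folds of 27.5 and 30.3 in replicate 2 and of 3.60 and 11.1 in replicate 1. In reads, Mir145a was 1.49 and 0.0762 times Mir22 in replicates 2 and 1, and 2.02 and 0.290 times Mir208b. Mir143 was 18.2 and 2.39 times Mir22 in reads, and 24.8 and 9.11 times Mir208b. These are values of 2 libraries, with counting error as the only error.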
